A study of Mus musculus with 4 samples.

Results

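Macrophage and Kupffer cell transcription factors were followed across liver myeloid cells of mice in 3 groups: normal chow (NCD), high-fat diet (HFD), and high-fat diet with later Jiangtang Qingre Formula (JQF). The 9 genes Nr1h3, Spic, Id1, Id3, Maf, Irf8, Pparg, Rxra and Klf4 were taken by symbol from the 32285 genes of the deposited tables. Single-cell libraries were made from perfused and enzymatically digested livers of male C57BL/6J mice, after red cell lysis and dead cell removal. NCD was represented by 1 library, HFD by 2 libraries and JQF by 1 library. HFD and JQF mice had first been fed the high-fat diet to induce fatty liver. During treatment JQF mice received the formula, a preparation of several herbs, by mouth, and NCD and HFD mice received water by the same route. The single NCD and JQF libraries had no replicate, and the libraries are called NCD 1, HFD 1, HFD 2 and JQF 1. The sample labels also carry the terms hematopoietic stem cell and immune cell, whereas endothelial, lymphoid and myeloid markers were all found in each library.

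Kupffer cells are the resident macrophages of the liver sinusoid. Their identity is known to rest on the nuclear receptor LXRα, encoded by Nr1h3, together with signals from neighbouring endothelial and stellate cells that act through BMP, TGF-β and Notch. When resident cells are lost, blood monocytes enter the niche and acquire the Kupffer programme step by step, and in fatty liver some of them become Trem2 and Gpnmb expressing lipid-associated macrophages. RXRα, encoded by Rxra, is a partner with which LXR and PPAR receptors bind DNA. SpiC is an Ets family factor of iron-recycling macrophages, c-MAF is a bZIP factor of mature macrophages, and Id1 and Id3 are helix-loop-helix inhibitors that BMP signals induce. Irf8 directs monocytes, plasmacytoid cells and the cDC1 lineage of dendritic cells, PPARγ is a fatty acid receptor, and Klf4 is a zinc-finger factor of monocytes.

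The loci are those of GRCm38 (GENCODE M21). Among the nuclear receptors, Nr1h3 spans chr2:91184061-91202834 on the minus strand, Rxra chr2:27676440-27762957 on the plus strand and Pparg chr6:115360951-115490399 on the plus strand. Spic spans chr10:88674772-88685015 and Maf chr8:115682942-115707794, both on the minus strand. The short Id genes lie on the plus strand, Id1 at chr2:152736251-152737410 and Id3 at chr4:136143497-136145755. Irf8 spans chr8:120736358-120756694 on the plus strand and Klf4 chr4:55527143-55532466 on the minus strand. Each value counts UMIs over the whole gene, mainly from its 3′ end. Promoter sequences of RefSeq (GRCm38.p6, from 250 bases before to 50 bases after the start) were found for 7 of the 9 genes, without Id1 and Maf. They are given for Nr1h3 and Spic, which of macrophages, monocytes and DC were highest in macrophages and lowest in DC, and for Klf4. Nr1h3 and Klf4 were also the members that passed the diet test in macrophages, monocytes and DC. Letters searched on both strands were GAGGAA, the core bound by the macrophage factor PU.1, and AGGAAGT, an Ets family site. Both hold AGGAA, so 1 stretch can match both. GAGGAA was present in 28.3% and AGGAAGT in 9.35% of 32851 RefSeq promoters. Capitals mark a match on the printed strand, read 5′ to 3′, or the reverse complement ACTTCCT of the Ets site.
Nr1h3 promoter 1, chr2:91194986-91195285, minus strand: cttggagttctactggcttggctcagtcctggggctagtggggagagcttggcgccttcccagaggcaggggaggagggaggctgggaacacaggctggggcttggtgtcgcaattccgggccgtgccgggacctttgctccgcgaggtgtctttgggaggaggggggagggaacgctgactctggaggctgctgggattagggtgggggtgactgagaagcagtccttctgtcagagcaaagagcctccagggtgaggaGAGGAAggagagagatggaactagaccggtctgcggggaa
Spic promoter, chr10:88682974-88683273, minus strand: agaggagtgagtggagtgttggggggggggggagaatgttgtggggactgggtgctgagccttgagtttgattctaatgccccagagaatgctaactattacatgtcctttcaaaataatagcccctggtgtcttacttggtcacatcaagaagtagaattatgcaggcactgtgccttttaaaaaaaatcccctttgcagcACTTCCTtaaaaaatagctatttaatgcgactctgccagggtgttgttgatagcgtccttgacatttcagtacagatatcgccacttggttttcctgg
Klf4 promoter, chr4:55532426-55532725, minus strand: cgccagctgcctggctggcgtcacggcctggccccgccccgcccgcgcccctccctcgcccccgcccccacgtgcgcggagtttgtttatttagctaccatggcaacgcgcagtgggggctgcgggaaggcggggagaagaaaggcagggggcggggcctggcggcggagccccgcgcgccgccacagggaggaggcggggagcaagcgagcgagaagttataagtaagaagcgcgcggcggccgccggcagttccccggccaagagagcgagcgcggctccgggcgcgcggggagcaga
RefSeq gave 2 promoters of Nr1h3 that overlap. Promoter 1 held 1 match to GAGGAA and promoter 2, at chr2:91195067-91195366, none of either motif. The Spic promoter held 1 match to the Ets letters on the other strand, and neither was found in this window of Klf4. Guanine and cytosine made up 62.7%, 45% and 74.3% of the 3 printed windows in their order. A match describes letters only, not a bound site.

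Cells with at least 500 genes and at most 20% mitochondrial UMIs (unique molecule counts) were kept, which left 5975 cells in NCD 1, 6516 in HFD 1, 10259 in HFD 2 and 8540 in JQF 1. Median depth per cell was 13081 UMIs in NCD 1 and 7608 to 8884 UMIs in the others. Each cell was placed in at most 1 gate by raw UMIs of marker genes, none of them a member, and 17.5% to 31.8% of cells per library stayed ungated. Macrophages needed at least 5 UMIs of C1qa, C1qb and C1qc, and all myeloid gates allowed at most 1 UMI of lymphoid, of endothelial and of stromal markers each. Names stand for gates, so that macrophage means macrophage-like. The macrophage gate held 39, 503, 1404 and 266 cells in NCD 1, HFD 1, HFD 2 and JQF 1, the monocyte gate 39, 515, 842 and 415 cells, and the dendritic cell (DC) gate 95, 700, 745 and 712 cells.

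The gates carried their own markers. Kupffer markers summed to 6853, 4405, 6377 and 6959 CPM (UMIs scaled to a total of 1000000) in Clec4f-positive macrophages, against at most 34.3 CPM in monocytes and 42.4 CPM in DC. Markers of other cells were lower but differed between libraries: hepatocyte transcripts in the macrophage gate summed to 265 CPM in NCD 1 and 23.9 to 77.6 CPM in the others, and neutrophil transcripts in the DC gate to 409 CPM in NCD 1 and 37.6 to 70.3 CPM in the others. In NCD 1, 76.8% of the cells with macrophage markers exceeded the endothelial limit, against 17.9% to 42.5% in the other libraries, so that few NCD macrophages remained. Levels are given as CPM of all UMIs in the gate of 1 library. Pairs of libraries shared 12 to 27 cell barcodes.

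**Figure D1:**
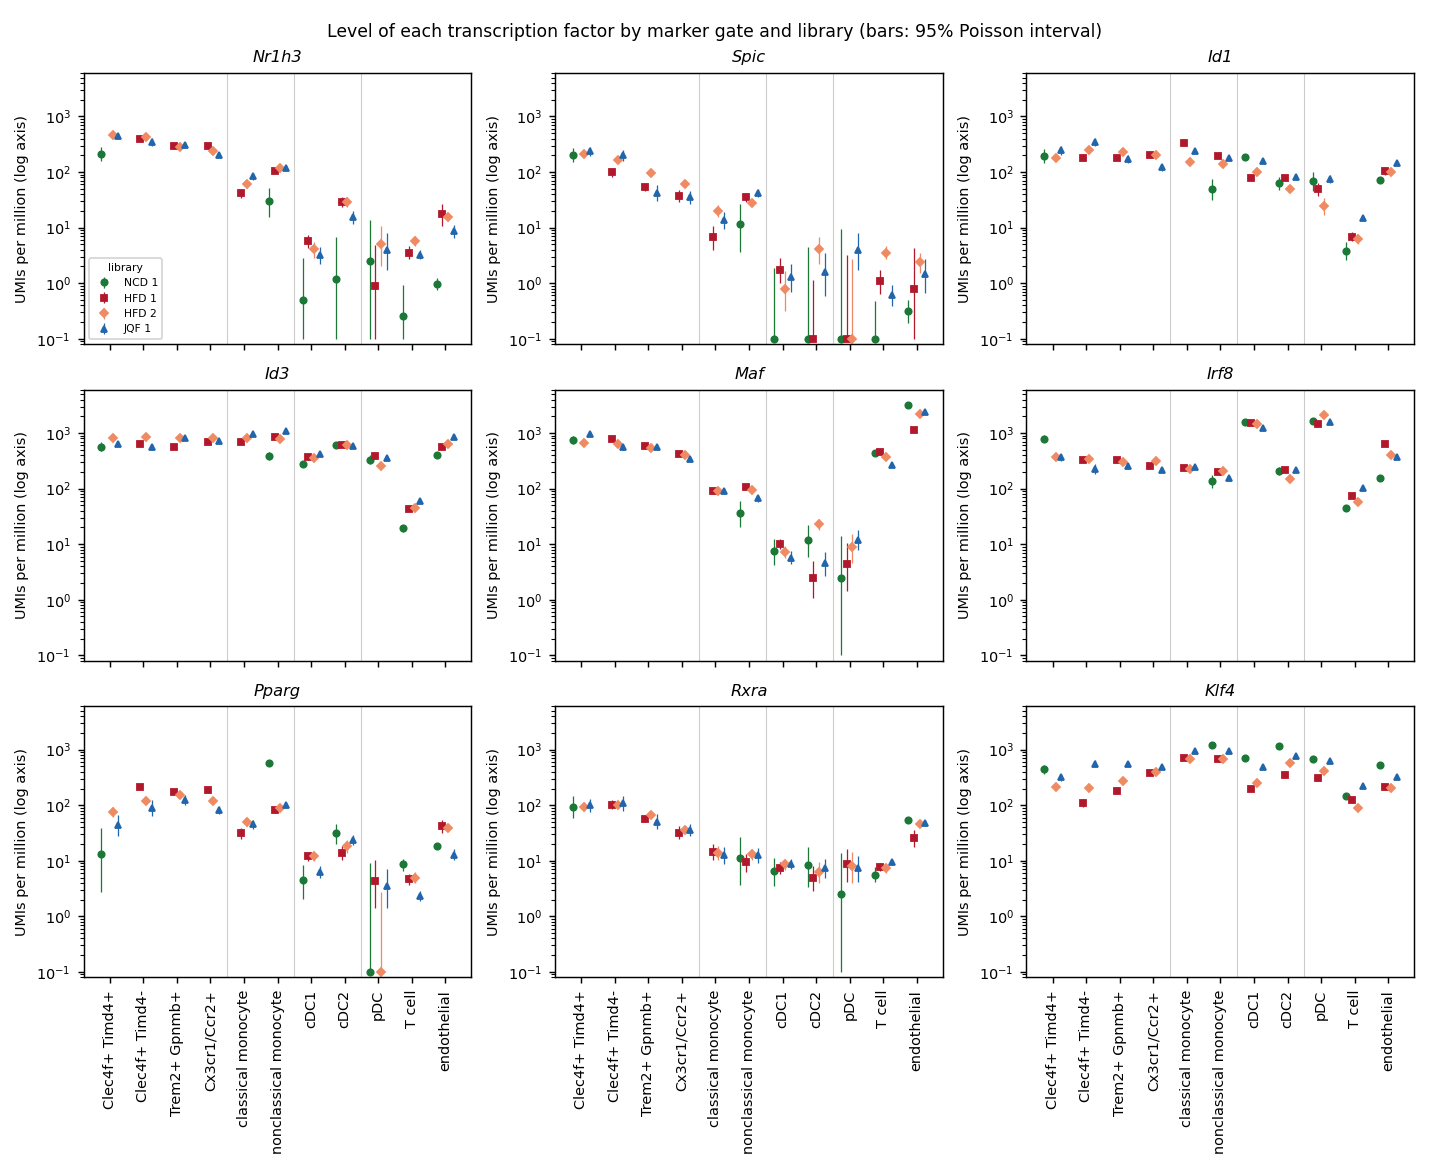
Level of each of the 9 transcription factors (CPM, log axis) in 11 marker gates of each library, with 95% Poisson intervals for counting error. Only gates with at least 10 cells are drawn and a value of 0 is drawn at 0.1. Nr1h3 and Rxra step down from macrophages to monocytes and DC. Spic does so in part: in JQF 1 nonclassical monocytes (41.7 CPM) stand above Cx3cr1 or Ccr2 positive macrophages (35.4 CPM). Irf8 peaks in cDC1 and plasmacytoid cells (pDC), and Maf is highest in endothelial cells.

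The lipid-sensing nuclear receptors differed in their distribution over the gates. Nr1h3, the oxysterol receptor LXRα, stood at 144 CPM in NCD 1, 317 in HFD 1, 327 in HFD 2 and 279 in JQF 1 in the macrophage gate. The same order gave 23.4, 76.2, 97.9 and 105 CPM in monocytes. DC were lowest, with 0.70, 12.4, 11.9 and 6.92 CPM. In each library macrophages were above monocytes and monocytes above DC, and the macrophage and monocyte ranges did not overlap over all 4 libraries. Ordered over 15 gates by the mean of libraries with at least 10 cells, Nr1h3 was highest in Clec4f-positive Timd4-negative macrophages (389 ± 37.0 CPM, SD, n = 3) and Clec4f-positive Timd4-positive macrophages (370 ± 138 CPM, SD, n = 3), followed by the 3 Clec4f-negative gates. The first 2 means rest on different libraries, without NCD 1 for Timd4-negative and without HFD 1 for Timd4-positive cells, and in both libraries they share the order was reversed, with 459 CPM in Timd4-positive against 422 CPM in Timd4-negative cells of HFD 2 and 440 against 349 CPM in JQF 1. The ranges of these 5 macrophage gates overlapped from neighbour to neighbour. A gap without overlap separated the lowest of them, Cx3cr1 or Ccr2 positive cells at 243 ± 42.2 CPM (SD, n = 3), from nonclassical monocytes at 93.3 ± 43.0 CPM (SD, n = 4).

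Rxra, the partner receptor, was graded between cells. Macrophages held 56.0, 61.1, 70.7 and 56.6 CPM in NCD 1, HFD 1, HFD 2 and JQF 1, monocytes 14.4, 11.8, 13.4 and 12.6 CPM, and DC 7.0, 6.1, 7.4 and 7.7 CPM. The 3 ranges did not overlap. Within NCD 1 the macrophage value rested on few cells: without the 3 highest cells of each library it was 32.6 CPM, against 58.1, 69.2 and 52.6 CPM in HFD 1, HFD 2 and JQF 1. Timd4-negative and Timd4-positive Clec4f-positive macrophages led the order with 104 ± 3.67 and 96.5 ± 3.82 CPM (SD, n = 3 each). The next gate, the Trem2 Gpnmb macrophages, stood at 58.6 ± 8.31 CPM (SD, n = 3). The first 2 means rest on different libraries, as for Nr1h3. In the libraries they share, Timd4-negative against Timd4-positive cells held 102 against 94.4 CPM in HFD 2 and 108 against 101 CPM in JQF 1. Their ranges overlapped once gates of 4 cells were counted, with 116 CPM in Timd4-positive cells of HFD 1 and 133 CPM in Timd4-negative cells of NCD 1. Endothelial cells also held Rxra, at 25.9 to 54.4 CPM.

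Pparg, the fatty acid receptor, had no common order over the libraries. Macrophages held 66.8, 194, 128.5 and 87.3 CPM in NCD 1, HFD 1, HFD 2 and JQF 1. Monocytes held 468 CPM in NCD 1 but 59.6, 75.3 and 77.5 CPM in the other libraries. NCD 1 was thus the lowest library in macrophages and the highest in monocytes, whereas DC stayed between 10.5 and 12.8 CPM in all 4 libraries. Of the 251 Pparg UMIs in NCD nonclassical monocytes, 58.6% came from 3 cells.

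Spic, the Ets factor of iron-recycling macrophages, had a higher level in Clec4f-positive than in Clec4f-negative macrophages of each library. Clec4f-positive macrophages had 228, 98.1, 177 and 222 CPM in NCD 1, HFD 1, HFD 2 and JQF 1, and Clec4f-negative macrophages had 38.9, 56.7, 90.5 and 36.2 CPM. HFD 1 had the lowest Clec4f-positive level of the 4. Clec4f-negative cells were more numerous in HFD 1, where they held 327 Spic UMIs against 115 in Clec4f-positive cells, and in HFD 2 the split was 951 against 999 UMIs. Among Clec4f-negative cells, those without Trem2 Gpnmb and without Cx3cr1 or Ccr2 reached 149 CPM in HFD 1 and 177 CPM in HFD 2, above the Clec4f-positive level in HFD 1 and level with it in HFD 2. The same cells were below it in NCD 1, at 79.6 CPM in 6 cells, and in JQF 1, at 12.9 CPM in 13 cells. Monocytes held 9.0 to 30.0 CPM. No Spic UMI was seen in NCD DC, which with 2863154 UMIs allows up to 1.05 CPM, and the other libraries held 1.29 to 1.96 CPM in DC.

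Maf, the bZIP factor of mature macrophages, was present in macrophages at 475, 575, 537 and 499.5 CPM in NCD 1, HFD 1, HFD 2 and JQF 1. Monocytes held 46.8 to 101 CPM and DC 5.8 to 11.1 CPM, and these ranges were apart from each other and from macrophages. Maf was also present outside the myeloid gates: endothelial cells held 1148 to 3176 CPM and T cells 262 to 452 CPM. In NCD 1, where 3695 of the kept cells fell in the endothelial gate, empty droplets held 1421.5 CPM of Maf against 220 to 366 CPM in the other libraries, and the part of this free RNA in gated cells was not tested.

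The Id inhibitors were broad. Id3 held 829, 598.5, 814 and 688 CPM in macrophages of NCD 1, HFD 1, HFD 2 and JQF 1 and 389, 777, 803 and 1025 CPM in monocytes. The 2 ranges overlapped. Id1 was lower than Id3 in both gates, with 175, 184, 224 and 172 CPM in macrophages and 79.2, 256, 146 and 205 CPM in monocytes. Both were also found in endothelial cells, Id3 at 406.5 to 839 CPM and Id1 at 70.7 to 147 CPM, whereas T cells held at most 59.0 CPM of Id3 and 14.8 CPM of Id1. Levels of the 2 genes are per UMI of a 3′ end assay and are not corrected for length.

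Irf8 and Klf4 had their highest levels outside macrophages. Irf8, the factor of the cDC1 lineage, stood at 1551, 1523, 1460 and 1227 CPM in cDC1 of NCD 1, HFD 1, HFD 2 and JQF 1 and at 1653, 1487, 2087 and 1597 CPM in pDC. In cDC2 it was 148 to 221 CPM, below the range of cDC1 in each library. Klf4 was highest in nonclassical monocytes (887 ± 267 CPM, SD, n = 4), classical monocytes (771 ± 143 CPM, SD, n = 3) and cDC2 (717 ± 347 CPM, SD, n = 4), whose ranges overlapped. The classical mean leaves out NCD 1, which held 7 such cells, and in the libraries that both monocyte means share classical and nonclassical cells were level, at 696 and 683 CPM in HFD 1, 681 and 675 CPM in HFD 2 and 937 and 955 CPM in JQF 1.

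The share of cells with at least 1 UMI was read beside that of T cells, which lie outside the myeloid gates. Nr1h3 was detected in 56.4% of 39 NCD macrophages (exact 95% interval 39.6% to 72.2%), 83.9% and 82.0% of those in HFD 1 and HFD 2 and 78.9% of those in JQF 1. In T cells it was detected in 0.31%, 2.05%, 3.41% and 1.73% in the same order, with median depths of 10751, 7366.5, 6699 and 8166.5 UMIs in T cells and 8420, 11418, 9810.5 and 11675.5 UMIs in macrophages. When every cell was thinned to 3000 UMIs, which left out 7, 24, 136 and 24 shallower macrophages, the shares were 34.4%, 56.6%, 57.3% and 49.2%. NCD 1 stayed lowest on both scales.

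Spic was detected in 45.5%, 43.8%, 48.6% and 50% of Clec4f-positive macrophages and in at most 0.61% of T cells. Rxra was detected in 51.2% to 61.8% of Clec4f-positive and 17.6% to 37.8% of Clec4f-negative macrophages, and in 5.2% to 8.5% of T cells. T cells held 5.65 to 9.47 CPM of Rxra, near the level of DC, so for this gene they are no empty reference. Nr1h3 in DC, detected in 2.1%, 12.1%, 11.9% and 7.7%, was above its T cell share in each library, but DC were also deeper than T cells, with medians of 17045 to 29146 UMIs. After thinning the DC shares were 1.1%, 4.1%, 3.3% and 2.6%, against 0%, 0.99%, 1.69% and 0.66% in T cells.

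**Figure D2:**
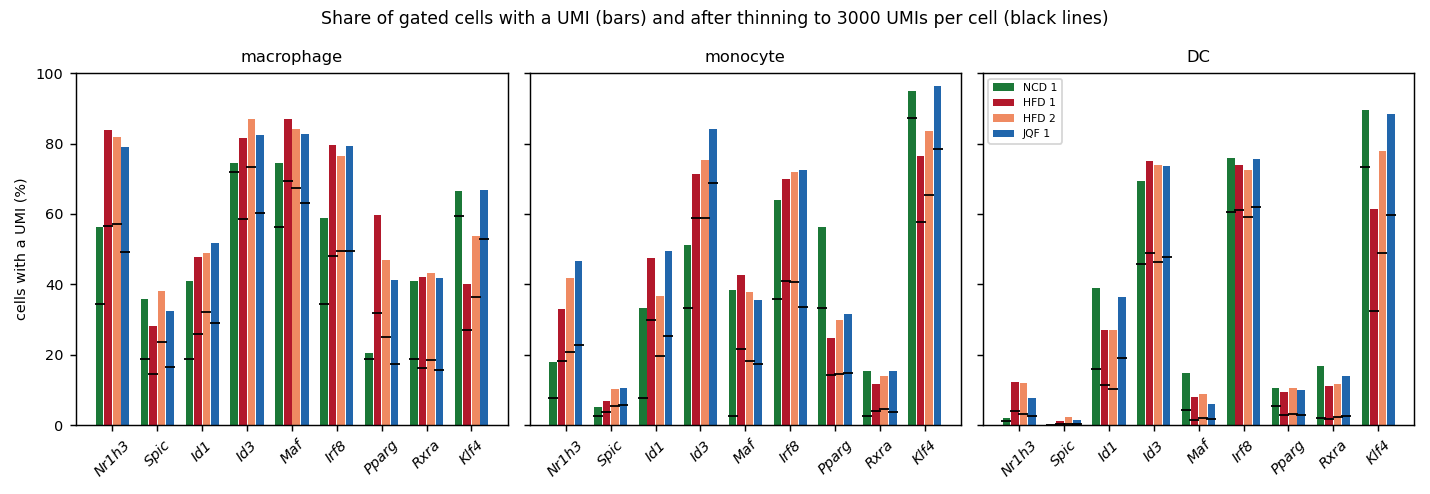
Share of gated cells with at least 1 UMI of each transcription factor in macrophages, monocytes and DC of the 4 libraries (bars, percent), with the share after thinning each cell to 3000 UMIs as black lines. Nr1h3 is lowest in NCD 1 in all 3 gates, and Spic is near 0% in DC.

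Macrophages, monocytes and DC were compared within libraries by the quasi-likelihood test of edgeR on summed UMIs, with the library as a block and Benjamini-Hochberg adjustment over all genes tested. Between macrophages and monocytes 6 of the 9 members passed the threshold of 0.05, where 32.5% of all genes tested did. Macrophages held more Maf (log2 fold change 2.64 ± 0.16 SE, adjusted p = 2.85e-05), Rxra (2.21 ± 0.13, adjusted p = 2.46e-05), Spic (1.87 ± 0.25) and Nr1h3 (1.78 ± 0.18). Irf8 was also higher by 0.56 ± 0.15 (edgeR adjusted p = 0.0273), a call that 4 of 15 alternatives lost. Klf4 was lower in macrophages by −1.35 ± 0.13. Id1, Id3 and Pparg did not pass, with log2 differences of 0.11, −0.06 and 0.12.

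Against DC, 8 of the 9 members differed in macrophages, where 49.2% of all genes did. Maf and Spic differed most, by 5.99 ± 0.19 and 5.99 ± 0.27 on the log2 scale. Nr1h3 was higher by 5.08 ± 0.28, Pparg by 3.32 ± 0.26 and Rxra by 3.11 ± 0.14, and Irf8 was lower, by −1.80 ± 0.09. The Id genes differed less, Id1 by 0.89 ± 0.26 (edgeR adjusted p = 0.0251, a call that 2 of 15 alternatives lost) and Id3 by 0.82 ± 0.11. Klf4 did not pass (−0.30 ± 0.15, edgeR adjusted p = 0.131). Between monocytes and DC 8 members differed, where 46.8% of all genes did, with Spic (4.15), Maf (3.44), Nr1h3 (3.29), Pparg (3.14), Klf4 (1.04), Rxra (0.91) and Id3 (0.88) higher in monocytes and Irf8 (−2.35) lower. Id1 was the exception, at 0.81 ± 0.35 (edgeR adjusted p = 0.0902).

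Clec4f-positive, Kupffer-like macrophages were set against the other macrophages of the same library by their Clec4f UMIs. Endothelial markers summed to 89.6, 87.8, 78.2 and 79.5 CPM in Clec4f-positive cells of NCD 1, HFD 1, HFD 2 and JQF 1. In Clec4f-negative cells they summed to 51.9, 34.3, 18.8 and 7.09 CPM. Endothelial cells also held Maf and Rxra, and the part of endothelial transcripts in this comparison was not tested. Rxra and Spic, 2 of the 9 members, passed the test, where 6.52% of all genes did. Rxra was 97.7, 102, 100 and 104 CPM in Clec4f-positive cells of NCD 1, HFD 1, HFD 2 and JQF 1 and 22.7, 52.7, 54.9 and 39.9 CPM in Clec4f-negative cells, without overlap (log2 fold change 1.12 ± 0.18 SE, edgeR adjusted p = 0.0130). Spic was higher by 1.54 ± 0.31 (edgeR adjusted p = 0.0288), with the values given above. Nr1h3 (0.71 ± 0.17, adjusted p = 0.0508), Maf (0.87 ± 0.22, adjusted p = 0.0623) and Klf4 (−0.66 ± 0.18, adjusted p = 0.0715) had the same sign in each library but did not pass in edgeR. Irf8 did not pass either and was also higher in Clec4f-positive cells of each library. It stood at 721, 337, 348 and 306 CPM there, against 97.3, 292, 308 and 226 CPM in Clec4f-negative cells. More members passed under some alternatives, whose counts are given at the end. Neither Rxra nor Spic passed once HFD 1, HFD 2 or JQF 1 was left out, with adjusted p of 0.0595 to 0.0948 for Rxra and 0.0541 to 0.103 for Spic, whereas both passed without NCD 1.

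Among Clec4f-negative macrophages, those with Trem2 and Gpnmb were compared with the others in HFD 1, HFD 2 and JQF 1, since NCD 1 held only 2 such cells. Maf was 580, 535 and 553 CPM in Trem2 Gpnmb macrophages and 453, 425 and 326 CPM in the other Clec4f-negative cells of the same libraries, without overlap. Rxra was 57.5, 67.4 and 50.8 CPM against 45.1, 41.4 and 35.1 CPM, also without overlap. These 2 members passed the edgeR test, Maf at 0.50 ± 0.11 (adjusted p = 0.0199) and Rxra at 0.56 ± 0.13 (adjusted p = 0.0234), where 11.2% of all genes did. The Trem2 Gpnmb cells were deeper, with medians of 14292 to 16439.5 UMIs against 9203 to 13250. After thinning to 3000 UMIs and gating again neither passed, at 0.12 for Maf (adjusted p = 0.695) and −0.27 for Rxra (adjusted p = 0.588), and without HFD 2 neither passed (adjusted p = 0.104 and 0.249). At least 1 of the 2 calls was also lost with DESeq2, with other limits on lineage UMIs and with a C1q sum of 10.

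**Figure D3:**
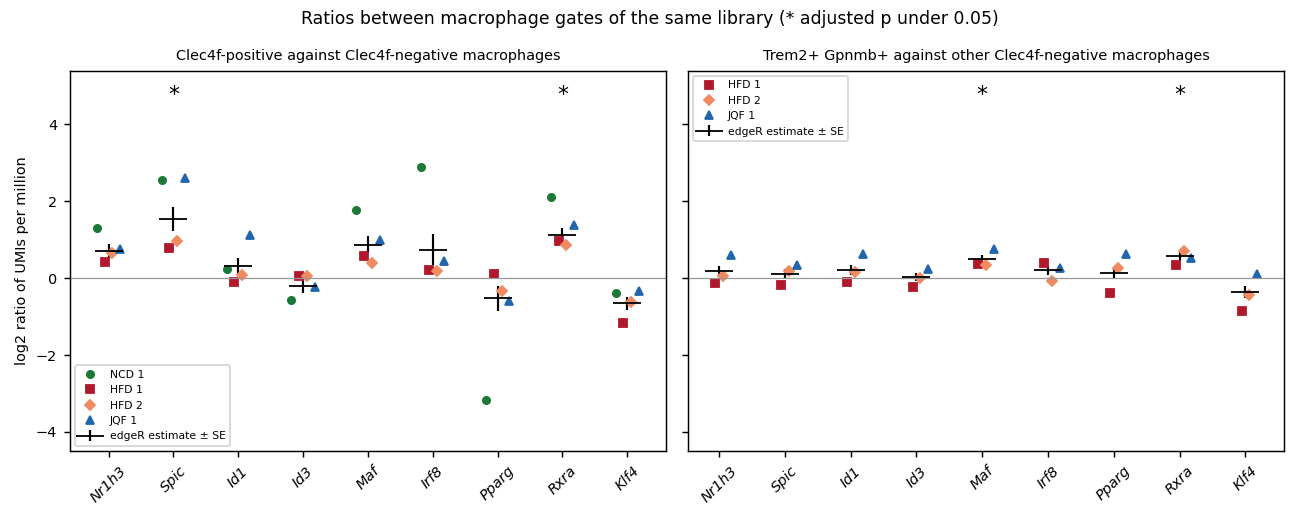
Log2 ratio of CPM between 2 macrophage gates of the same library for each of the 9 transcription factors (points, 1 per library), with the edgeR estimate and its SE in black. The left panel sets Clec4f-positive against Clec4f-negative macrophages and the right panel Trem2 Gpnmb against other Clec4f-negative macrophages. Asterisks mark Spic and Rxra on the left and Maf and Rxra on the right, the members that passed the test.

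The diet comparison asked which factors differed between HFD and NCD within a gate. All 4 libraries entered 1 fit, so the spread came from the HFD pair alone and NCD 1 was assumed to vary as HFD did. The study's methods count as many liver tissues as libraries in each group, and the labels do not name the animal behind a library, so p-values measure the spread between these libraries only. The comparisons with JQF use the same HFD libraries. In macrophages 2 of the 9 members passed, where 11.6% of all genes did, and the median over all genes was 0.15 on the log2 scale. Nr1h3 rose, from 144 CPM in NCD 1 to 322 ± 7.04 CPM in HFD (SD, n = 2), by 1.10 ± 0.19 on the log2 scale (edgeR adjusted p = 0.0263). Klf4 fell from 513 CPM to 217 and 276 CPM, with a log2 fold change of −1.11 ± 0.22 (edgeR adjusted p = 0.0351). Both HFD libraries were above NCD 1 for Nr1h3 and below it for Klf4. The make-up of the gate differed with diet: Clec4f-positive cells were 22 of 39 macrophages in NCD 1, 89 of 503 in HFD 1, 562 of 1404 in HFD 2 and 92 of 266 in JQF 1, and Trem2 Gpnmb cells were 2, 197, 357 and 46.

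Neither call held in every version of the macrophage gate. Allowing up to 5 UMIs of the lineage markers brought 82 NCD macrophages in place of 39, and then Nr1h3 was 234, 339, 368 and 325 CPM in NCD 1, HFD 1, HFD 2 and JQF 1 (log2 fold change 0.65, adjusted p = 0.0998) and Klf4 455, 188, 238 and 484 CPM (−1.03, adjusted p = 0.0574). Endothelial markers summed to 84.2 CPM in NCD 1 and 43.0 to 55.2 CPM in the others in that gate, against 68.6 and 26.0 to 43.3 CPM in the gate of the main test, and their part was not tested. Thinning to 3000 UMIs before gating gave 0.36 for Nr1h3 (adjusted p = 0.388). The lineage limit then applied to thinned counts, so the NCD 1 cells were not the same set. They included 61 Timd4-positive and 15 Timd4-negative Clec4f-positive macrophages, against 18 and 4 in the main test. Clec4f-positive macrophages alone, without thinning, gave 0.84 for Nr1h3 (adjusted p = 0.0562). Klf4 passed in Clec4f-positive macrophages alone, at −1.57 (adjusted p = 0.0107). Without the 3 highest cells of each library Klf4 in NCD 1 went from 513 to 334 CPM in all macrophages, against 201 and 268 CPM in HFD, and from 440 to 233 CPM in Clec4f-positive cells, against 58.5 and 191 CPM, so NCD 1 stayed above both.

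Pparg in macrophages, at 66.8 CPM in NCD 1 and 194 and 128.5 CPM in HFD, gave 1.2 ± 0.34 and did not pass (edgeR adjusted p = 0.0763), but was called in 3 of 12 alternatives: no gene filter (adjusted p = 2.07e-06), Scrublet removal (adjusted p = 0.0415) and Clec4f-positive macrophages alone (adjusted p = 0.00745). In NCD 1 the 3 highest cells carried most of it, and without the 3 highest cells of each library Pparg was 12, 170, 122 and 75.2 CPM. Within Clec4f-positive cells, 3 Pparg UMIs in NCD 1 stood against 864 UMIs in the HFD pair, a ratio of 10.4 (95% counting interval 3.55 to 50.5). Up to 5 lineage UMIs brought 62 such cells in NCD 1 in place of 22. Pparg was then 37.2 CPM in NCD 1 against 157 and 77.0 CPM in HFD, a smaller difference. In the main gate Timd4-positive cells were 18 of the 22 in NCD 1, 4 of 89 in HFD 1 and 141 of 562 in HFD 2. They held 13.5, 19.3 and 77.0 CPM of Pparg there, and the part of this make-up was not tested. Spic, Id1, Id3, Maf, Irf8 and Rxra did not pass in macrophages, with log2 fold changes between −0.45 and 0.18. A few NCD cells carried some of these values. Without the 3 highest cells of each library Irf8 went from 374 to 107 CPM in NCD 1, below the 274 and 305 CPM then left in HFD, which turned its direction. Id1 went from 175 to 56.0 CPM in NCD 1, against 166 and 217 CPM in HFD. Irf8 in Clec4f-positive cells, at 721 CPM in NCD 1 and 337 and 348 CPM in HFD (−1.18, edgeR adjusted p = 0.00530), became 126, 264 and 322 CPM without the 3 highest cells of each library.

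Monocytes differed in more members: 6 of the 9 passed between HFD and NCD, where 13.9% of all genes did and the median over all genes was 0.19. Nr1h3 rose from 23.4 CPM to 76.2 and 97.9 CPM (log2 fold change 1.88 ± 0.37, edgeR adjusted p = 0.0113). Id3 rose from 389 CPM to 790 ± 18.3 CPM (SD, n = 2; 1.00 ± 0.23, adjusted p = 0.0224) and Id1 from 79.2 CPM to 256 and 146 CPM (1.30 ± 0.37, adjusted p = 0.0456). Maf rose from 46.8 CPM to 101 and 94.3 CPM (1.03 ± 0.25, adjusted p = 0.0245). In all 4 genes both HFD libraries were above NCD 1. Id3 and Id1 were also higher in HFD in T cells, B cells and empty droplets, with values given beside those of free RNA. Endothelial markers in the monocyte gate summed to 17.99 CPM in NCD 1 and 0.347, 5.48 and 4.41 CPM in HFD 1, HFD 2 and JQF 1, and their part was not tested. The monocyte gate of NCD 1 held 7 classical and 32 nonclassical cells, whereas classical cells made up 225 of 515 and 301 of 842 cells in HFD. The same 6 members passed in nonclassical monocytes alone.

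Pparg fell in monocytes, from 468 CPM in NCD 1 to 59.6 and 75.3 CPM in HFD (log2 fold change −2.81 ± 0.21, edgeR adjusted p = 0.000224), and Klf4 fell from 1188 CPM to 683 ± 8.44 CPM (SD, n = 2; −0.83 ± 0.21, adjusted p = 0.0318). Without the 3 highest cells of each library, Pparg in monocytes was 215 CPM in NCD 1 and 53.5, 69.5 and 64.0 CPM in the others. It was detected in 59.4% of NCD nonclassical monocytes and 31.4% to 35.9% of those of the other libraries (34.4% and 16.9% to 18.6% after thinning), against 1.15% to 1.73% of T cells. Spic (1.36 ± 0.48, edgeR adjusted p = 0.0913), Irf8 (0.35 ± 0.20) and Rxra (−0.21 ± 0.47) did not pass in monocytes. The Pparg and Nr1h3 calls were made in all 12 alternatives. Maf lost its call with DESeq2 (adjusted p = 0.161) and with up to 5 lineage UMIs (0.21, adjusted p = 0.580), and Id1 (adjusted p = 0.0778) and Klf4 (adjusted p = 0.0761) lost theirs when no lineage UMI was allowed.

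In DC 3 of the 9 members passed between HFD and NCD, where 21.2% of all genes did and the median was 0.11. Klf4 fell from 822 CPM to 221 and 322 CPM (log2 fold change −1.71 ± 0.27, edgeR adjusted p = 0.0145, called in all 13 alternatives). Id1 fell from 146 CPM to 71.1 and 77.6 CPM (−1.08 ± 0.16, edgeR adjusted p = 0.0122), and thinning ended the call (adjusted p = 0.391). The fall of Id1 was seen in cDC1, with 183 CPM in NCD 1 and 77.8 and 99.1 CPM in HFD. In cDC2 NCD 1 (62.7 CPM) lay between HFD 1 (79.4 CPM) and HFD 2 (50.5 CPM). Nr1h3 rose from 2 UMIs in NCD 1 to 337 UMIs in the HFD pair, a ratio of 17.4 (95% counting interval 4.79 to 145, edgeR adjusted p = 0.00770). The Nr1h3 call was made in 11 of 13 alternatives and lost after thinning (adjusted p = 0.137) and in cDC1 alone (adjusted p = 0.0697). Irf8 did not pass in DC, at 1184 CPM in NCD 1 and 1084 and 1014 CPM in HFD (−0.29 ± 0.16, edgeR adjusted p = 0.255). Id3, Maf, Pparg and Rxra did not pass either, with log2 fold changes between −0.16 and −0.01, and Spic, with no UMI in NCD 1 and 45 in the HFD pair, had an adjusted p of 0.0924. Endothelial markers in the DC gate summed to 10.1 CPM in NCD 1 and 1.73 to 5.60 CPM in the others.

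Free RNA and most other cells moved with the Nr1h3 and Klf4 differences and with the monocyte differences of Id3 and Id1. Id1 fell in the DC gate and in its cDC1, without a common direction in cDC2, but rose in free RNA and most of these cells. Empty droplets of at most 100 UMIs held 21.7, 103.5, 176 and 56.9 CPM of Nr1h3 in NCD 1, HFD 1, HFD 2 and JQF 1. T cells held 0.257, 3.53, 5.79 and 3.25 CPM of Nr1h3, and the ratio of the summed HFD pair to the 2 UMIs of NCD 1 was 17.98 (95% counting interval 4.89 to 150). B cells held 0.324, 2.23, 9.34 and 1.04 CPM, a ratio of 19.05 to the 1 UMI of NCD 1 (3.17 to 776). Both intervals include the ratio of 17.4 in DC. In endothelial cells the values were 0.973, 17.2, 15.3 and 8.52 CPM, with 61 UMIs in NCD 1, and the HFD mean was 16.7 times NCD 1. In empty droplets the HFD mean was 6.46 times NCD 1. Macrophages held 2.23 times and monocytes 3.72 times the NCD level. Klf4 was higher in NCD 1 than in both HFD libraries in B cells (512, 128, 179 and 333 CPM), T cells (147, 123, 90.6 and 224 CPM), endothelial cells (520, 212, 202 and 317 CPM) and empty droplets (387, 215, 258 and 271 CPM) as well. In neutrophils Klf4 of NCD 1 (89.6 CPM) lay between HFD 1 (72.2 CPM) and HFD 2 (97.2 CPM). Id3 was lower in NCD 1 than in both HFD libraries in T cells (19.3, 43.2 and 44.1 CPM in NCD 1, HFD 1 and HFD 2), B cells (35.6, 94.1 and 82.3 CPM), neutrophils (5.84, 101 and 69.4 CPM), endothelial cells (406, 570 and 624 CPM) and empty droplets (321, 415 and 637 CPM), with HFD means of 2.27, 2.48, 14.6, 1.47 and 1.64 times NCD 1 against 2.03 times in monocytes. For Id1 the HFD mean was 1.70 times NCD 1 in T cells, 1.88 times in B cells, 1.47 times in endothelial cells, 1.73 times in empty droplets and 0.612 times in neutrophils, against 2.54 times in monocytes and 0.511 times in DC. In pDC NCD 1 was not below both HFD libraries for Nr1h3 (2.51, 0.88 and 5.11 CPM in NCD 1, HFD 1 and HFD 2). The same held for Id3 (334, 384 and 253 CPM) and Id1 (67.7, 49.4 and 24.1 CPM), whereas Klf4 was higher in NCD 1 (677, 307 and 412 CPM). The part of free RNA in the myeloid values was not tested.

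**Figure D4:**
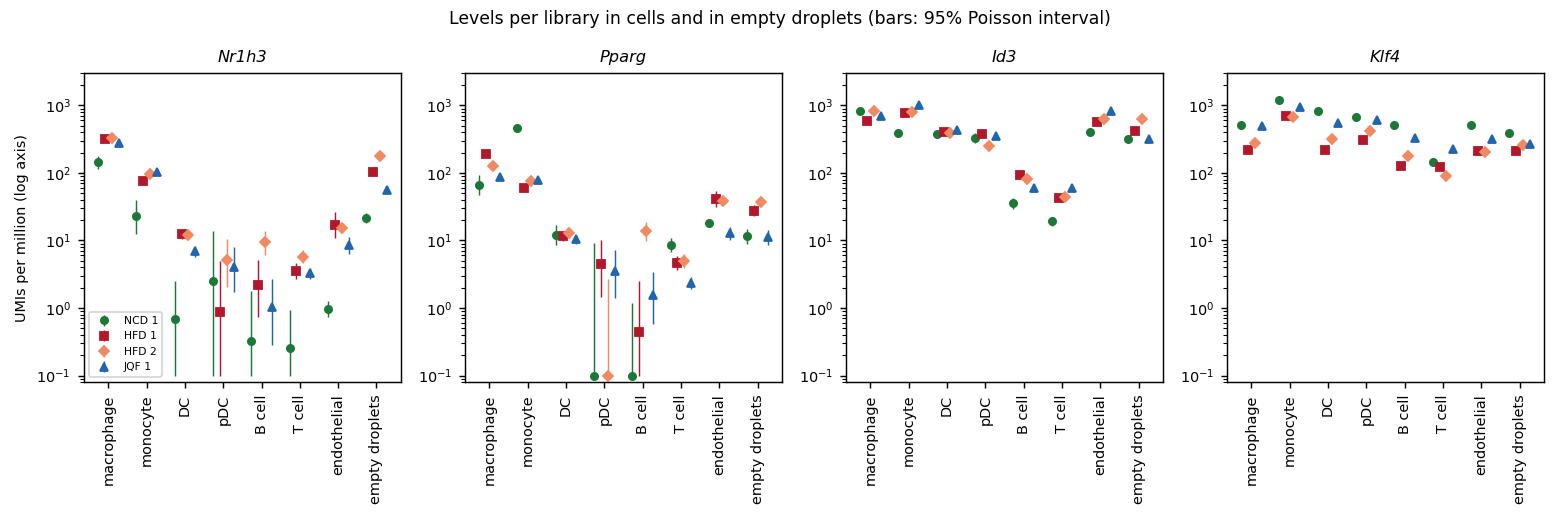
Levels of Nr1h3, Pparg, Id3 and Klf4 (CPM, log axis) in 7 gates and in empty droplets of each library, with 95% Poisson intervals. Values of 0 are drawn at 0.1. Nr1h3 of NCD 1 lies below both HFD libraries in T cells, endothelial cells and empty droplets as in macrophages, monocytes and DC, but not in pDC. Pparg of NCD 1 is highest in monocytes only among macrophages, monocytes and DC.

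The diet difference itself differed between gates for some members, by a test of the interaction of gate and group with the library as a block. As in the group contrasts, the spread came from the HFD pair with 1 residual degree of freedom. NCD 1 had no replicate and was assumed to vary as HFD did. Between macrophages and monocytes 2 members passed, where 3.9% of all genes did: Pparg, whose log2 fold change was 4.02 ± 0.41 higher in macrophages (edgeR adjusted p = 0.000174, called in all 6 alternatives), and Id3, by −1.26 (adjusted p = 0.0203). The Id3 call was lost with up to 5 lineage UMIs. Between monocytes and DC Pparg (−2.63, adjusted p = 6.65e-05), Id1 (2.41, adjusted p = 0.00187) and Id3 (1.08, adjusted p = 0.0265) passed, where 3.71% of all genes did. With library totals alone 2 members passed there, where 289 of 11906 genes did. Between macrophages and DC Nr1h3, Spic, Id1 and Klf4 passed, where 8.45% of all genes did. Nr1h3 and Id1 were called in 5 of 7 alternatives and Spic and Klf4 in 1 of 7. None of the members was called with up to 5 lineage UMIs, where 96 of 12929 genes were. The fitted Spic difference rests on a DC gate at 0 UMIs in NCD 1 and depends on the prior count.

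JQF against HFD gave no call among the 9 members in macrophages (0.229% of all genes), monocytes (0.426%) or DC (0.0787%). By an unadjusted p under 0.05, edgeR gave 1448, 1476 and 1330 genes in the 3 gates. Klf4 was higher in JQF 1 than in both HFD libraries in each gate, at 501 CPM in macrophages (log2 fold change 1.05 ± 0.21, edgeR adjusted p = 0.201), 947 CPM in monocytes (0.58 ± 0.21, adjusted p = 0.308) and 546 CPM in DC (1.09 ± 0.27, adjusted p = 0.314). JQF 1 also stood above HFD in B cells, T cells and endothelial cells, at 2.17, 2.10 and 1.53 times the HFD mean. Pparg in macrophages was 87.3 CPM in JQF 1, below both HFD libraries (−0.85 ± 0.26, edgeR adjusted p = 0.326). Without a filter on low genes Klf4 and Pparg passed in macrophages, where 828 of 19697 genes did against 28 of 12231 in the main test, and under no other alternative. The log2 fold changes of the other members lay between −0.31 and −0.01 in macrophages, and those of the members other than Klf4 between −0.24 and 0.48 in monocytes and between −0.73 and 0.86 in DC.

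**Figure D5:**
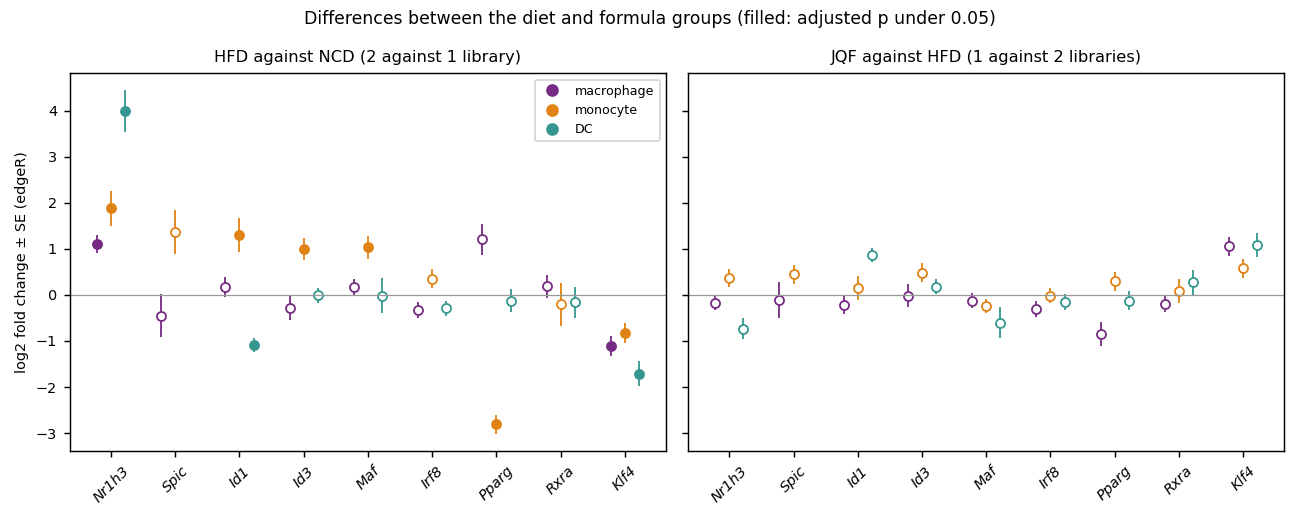
Log2 fold change with SE (edgeR) of the 9 transcription factors in macrophages, monocytes and DC for HFD against NCD and for JQF against HFD. Filled points passed the adjusted threshold of 0.05, which none did for JQF. Spic in DC is not drawn, since NCD 1 held no UMI of it.

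Other genes of the same pathways were described by counts. Among 10 LXR pathway genes, 8 were higher in macrophages than in monocytes and none lower, where 32.5% of all genes passed in either direction, led by Cd5l (8.02 on the log2 scale) and Apoc1 (3.20), with a list median of 1.30 against 0.01 for all genes. The iron and haem list also held Vcam1, a gene of a leukocyte adhesion molecule, and Hpgd, a gene of a prostaglandin-degrading enzyme. All 8 of its genes tested were higher in macrophages, among them the iron exporter Slc40a1 (6.74), the biliverdin reductase Blvrb (1.93) and Vcam1 (6.98). In Clec4f-positive against Clec4f-negative macrophages 4 of 10 LXR genes (Apoc1 3.81, Cd5l 2.79, Scd2 1.27 and Abca1 0.99) and 5 of 9 genes of the iron and haem list (Cd163 4.62, Slc40a1 2.47, Vcam1 2.35, Hpgd 1.72 and Hmox1 1.68, the last named after its value was seen) were higher and none was lower, where 6.52% of all genes passed. The fatty acid binding proteins Fabp5 and Fabp4 of the PPAR list were lower there, by −2.26 and −2.21, and no other member of the 8 tested passed.

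In Trem2 Gpnmb macrophages 6 of 8 PPAR genes were higher, among them Fabp5 (2.78), Fabp4 (2.74) and lipoprotein lipase Lpl (1.75), and none was lower, where 11.2% of all genes passed. Between HFD and NCD macrophages 4 of 9 PPAR genes rose, Fabp5 (3.27), Lpl (2.10), the scavenger receptor Cd36 (1.66) and the lipid droplet gene Plin2 (1.45), and 1 fell, Ppard (−1.27). Of 12231 genes tested 567 rose and 847 fell there, 11.6% in all. Fabp5 and Lpl were also among the genes higher in Trem2 Gpnmb cells, which were 2 of 39 macrophages in NCD 1 against 197 of 503 and 357 of 1404 in HFD, and the part of this make-up was not tested. Of 10 LXR genes 1 rose, the apolipoprotein Apoe (1.48), and the list median of 0.33 stood beside 0.15 for all genes. In monocytes, where 13.9% of all genes passed, no LXR gene did, and of 8 PPAR genes 2 rose (Lpl 3.96 and Plin2 1.22) and 2 fell (Cd36 −2.77 and Ppard −1.22).

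The macrophage counts that follow stand against the same 847 of 12231 genes that fell in macrophages. Of 4 Notch genes tested in macrophages 2 fell between NCD and HFD, Rbpj (−1.28) and Notch2 (−0.92), and none rose. Of 16 BMP, TGF-β and SMAD genes, the pathway upstream of Id1 and Id3, 1 fell in macrophages, the receptor gene Bmpr1a (−3.66). Of the same list 1 rose and 2 fell in monocytes, Id2 (1.18), Bmpr2 (−1.12) and Smad4 (−0.76), and 1 rose and 3 fell in DC, Smad6 (1.79), Smad3 (−2.26), Smad4 (−1.01) and Smad7 (−0.61). Of 12 other nuclear receptors 3 fell in macrophages, Nr4a3 (−4.73), Nr4a1 (−1.88) and Nr4a2 (−1.11). Of 27 other myeloid factors 6 fell and none rose, Egr1 (−2.27), Irf1 (−1.73), Atf3 (−1.44), Bhlhe40 (−1.42) and the low genes Irf4 (−3.32) and Zbtb46 (−3.04). Of these, Ppard, Bmpr1a, Bmpr2, the Smad genes, Id2, Nr4a2, Irf4 and Zbtb46 were named after their values were seen. Egr1, Atf3 and the Nr4a receptors are immediate early genes, known to respond quickly to stimulation of a cell. In DC 10 of the 27 myeloid factors fell, with Egr1 at −2.09 and Atf3 at −1.93, and 1 rose, Irf7 (1.61), also named after its value was seen, where 1699 of 13983 genes tested fell and 1263 rose (21.2% in all). Of the 12 other nuclear receptors 4 fell and 1 rose in DC, and 5 fell and none rose in monocytes. In monocytes Nr4a3 (−2.49), Nr4a2 (−2.06), Nr4a1 (−1.35) and Atf3 (−1.03) fell, Egr1 was at −0.37 and did not pass (edgeR adjusted p = 0.330), and the 27 myeloid factors went both ways, with 3 that rose and 5 that fell, where 743 of 12209 genes rose and 956 fell. The part of these genes in the Klf4 differences was not tested. Between JQF and HFD 1 of the 12 receptors passed in macrophages, where 28 of 12231 genes did (0.229%). It was Nr4a3, which rose by 1.90 on the log2 scale (edgeR adjusted p = 0.0327).

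The genes with the pattern most like that of each member were found by Pearson's r of log2 CPM over the means of 15 gates, among 6443 genes. Acp2, a lysosomal phosphatase gene, was most like Nr1h3 (r = 0.991), followed by Ear2 (0.971) and Itgb5 (0.970). Siglec1 was most like Spic (0.971), Tnfsf13 most like Pparg (0.946) and Ifi207 most like Id3 (0.960). Acp2 lies 50 bases from Nr1h3 on the other strand, and was 75.8, 151, 159 and 142 CPM in macrophages of NCD 1, HFD 1, HFD 2 and JQF 1 and 8.2 to 11.1 CPM in DC. Among member pairs r was 0.944 for Nr1h3 and Spic, 0.891 for Nr1h3 and Pparg, 0.834 for Id1 and Id3 and 0.833 for Maf and Rxra. The gates come from the same 4 libraries, so these values describe the gates and are no test.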

How the data were processed

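Single-cell RNA was measured in 4 liver libraries (10x Genomics 3′ v3.1). The authors aligned reads to mm10 with Cell Ranger, for which the submitters' processing notes give version 6.0.1 beside Seurat 4.0.3 and the file headers give other versions, so whether intronic reads were counted is not given in the sources used here. The deposited values are raw counts of UMIs per gene and barcode, without normalization. The filtered matrices were used for cells, and the unfiltered ones for empty droplets of at most 100 UMIs.

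Cells were filtered (500 or more genes, mitochondrial share up to 20%) and gated on raw marker UMIs. The total per library was 67615639 to 108062769 UMIs in kept cells. Doublets were not removed in the main analysis. Scrublet in scanpy 1.11.5 did not work by its own threshold, so an alternative removed the highest scores at 0.8% per 1000 barcodes. UMIs were summed per library and gate and tested with edgeR 4.0.16 in R 4.3.3 (quasi-likelihood, TMM scaling, filterByExpr, Benjamini-Hochberg adjustment over all genes tested, threshold 0.05). Group contrasts used all 4 libraries with 1 residual degree of freedom and at least 20 cells per library. Gate contrasts used the library as a block and at least 10 cells per gate. Interaction tests were added after seeing the data and also left 1 residual degree of freedom. Poisson and Clopper-Pearson intervals (95%) and the floor of 3 UMIs cover counting error only. SE was approximated from the log2 fold change and the root of its F statistic.

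The design on simulated counts recovered 21% of changes of 2-fold and 87% of 4-fold for HFD against NCD in macrophages (11907 genes), 99% and 100% for macrophages against monocytes (11505 genes), and 8% and 52% for the interaction of macrophages and monocytes (11541 genes). The simulation used the same fixed dispersion for every gene and a common pooled profile, and changed only genes above a minimum CPM. These rates therefore may not hold for the real libraries or for low genes. All 9 members were tested in every comparison of the main analysis, but not in every alternative. Further genes were named by a rule: the 3 most alike per member, and at most 4 called genes per pathway list by size of change among genes of at least 50 CPM. Members, gates and lists were chosen with earlier results of these data known. Alternatives were DESeq2 1.42.0, RLE factors, library totals alone, no gene filter, other cell filters and gates, thinning to 3000 UMIs, Scrublet removal and leaving out libraries. Python 3.11.15, numpy 2.4.6, pandas 2.3.3, scipy 1.17.1 and matplotlib 3.10.9 were used.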

Additional observations from a re-analysis of the deposited data

Results flagged for a closer look

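In 9 cases the difference between HFD and NCD was itself different between 2 gates of the same libraries, by the edgeR interaction test with the library as a block and Benjamini-Hochberg adjustment. The values are differences of log2 fold changes, and the test was added after seeing the data. Its spread came from the HFD pair, and the single NCD library was assumed to vary as HFD did. Pparg, the fatty acid receptor, differed by 4.02 in macrophages against monocytes (adjusted p = 0.000174) and by −2.63 in monocytes against DC (adjusted p = 6.65e-05). Both Pparg values rest on 39 NCD monocytes, where 3 cells held 56.5% of its 260 UMIs.

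Of the Id inhibitors, Id3 differed by −1.26 in macrophages against monocytes (adjusted p = 0.0203) and by 1.08 in monocytes against DC (adjusted p = 0.0265). Id1 differed by 2.41 in monocytes against DC (adjusted p = 0.00187) and by 1.39 in macrophages against DC (adjusted p = 0.00118). In cDC2 alone Id1 of NCD 1 (62.7 CPM) lay between HFD 1 (79.4 CPM) and HFD 2 (50.5 CPM), unlike in cDC1.

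Between macrophages and DC, Nr1h3 differed by −2.74 (adjusted p = 0.0164), with 2 Nr1h3 UMIs in the DC gate of NCD 1. Klf4 differed by 0.76 (adjusted p = 0.0128) and Spic by −7.23 (adjusted p = 0.0406), with no Spic UMI in the DC gate of NCD 1.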

How the results depend on the processing

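Of 1437 log2 fold changes of members recomputed under an alternative, 1349 kept their side of the threshold or, without a test, stayed within the SE of the main fit. Of the others 33 lost and 37 gained a call, and 17 without a test moved by more than that SE. Among results with a call 1 changed sign: Rxra in Trem2 Gpnmb macrophages was −0.27 after thinning. Changes of sign in results called in neither fit were not counted, so the 1349 can include them. The number of members called stayed within 1.5 times in 141 of 167 recomputed counts. The other 26 were as follows, the cause not tested. HFD against NCD gave 1 in macrophages thinned and 0 with up to 5 lineage UMIs (2 in the main test), and 1 in DC thinned (3). JQF against HFD in macrophages gave 2 with no gene filter (0). Clec4f-positive against negative gave 5 with DESeq2, Scrublet removal or thinning and 6 with no gene filter (2), and 0 to 5 with a library left out. Trem2 Gpnmb gave 1 with DESeq2, with no lineage UMI allowed or with up to 5, and 0 with a C1q sum of 10 or thinned (2), and 0 to 3 with a library left out. The interaction gave 1 with up to 5 lineage UMIs for macrophages against monocytes (2). Over all genes 183 of 11667 were called there, against 447 of 11462 in the main test. For macrophages against DC the interaction gave 2 with RLE factors, library totals or Scrublet removal, 1 thinned and 0 with up to 5 lineage UMIs (4), and 2 without JQF 1. Over all genes 1063 were called in that main test, and 464, 556, 378, 446, 96 and 544 under these alternatives in the same order. Most other counts in this paragraph stand without such shares and are no result about the members. Up to 5 lineage UMIs, subset-only fits and the interactions were chosen after seeing the data.

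No paired analysis of the groups was made, since the labels pair no library of a group with a library of another. Macrophage contrasts with no lineage UMI allowed and thinned monocyte contrasts were not run, since NCD 1 then held under 20 cells. Without 1 HFD library a group contrast has no test. The NCD gates of 39 macrophages and 39 monocytes limit the precision.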

Other observations

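In the few NCD gates below 10 cells, values rest on very little. Nr1h3 stood at 15.7 CPM in 2 NCD Trem2 Gpnmb macrophages, against 277 to 310 CPM in those of the other libraries. Irf8 stood at 3252 CPM in the single NCD cell of the mature DC gate, against 279 to 347 CPM in the 77 to 81 mature DC of the other libraries.

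Of the annotated genes that overlap a member, 3 were measured here. Gm15655, on the strand opposite to Maf, held 1.6 to 4.8 CPM in macrophages and 3.13 to 24.98 CPM in endothelial cells. Gm13783, on the strand of Nr1h3, held at most 1.39 CPM, and Gm44079, opposite to Pparg, at most 3.24 CPM, in macrophages, monocytes, DC and endothelial cells. Gm20388, on the strand of Irf8, and Gm23390, opposite to Nr1h3, were not analysed here.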
